A study of Mus musculus with 30 samples.

Results

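IFNβ was compared with vehicle in 6694c2 cells, a mouse pancreatic ductal adenocarcinoma (PDAC) line, by bulk RNA sequencing after 24 h. The comparison uses 6 of the 30 samples of the series, chosen by their labels, with 3 libraries from cells given IFNβ at 1000 U/mL and 3 from cells given vehicle, and it covers all genes with at least 10 reads over the 12 libraries of this line. The line came from a female mouse with Pdx-cre, floxed p53 on a p53-positive background and a floxed YFP reporter, so all groups share these alleles, and a single line stands for the tumour type. The series also holds 3 libraries of 6694c2 cells with IFNγ at 100 ng/mL, 3 with a STING agonist at 225 μg/mL, and the same 4 groups of B16F10 cells, a mouse melanoma line. Whether the 3 libraries of a group came from separate cultures is not stated, so the p-values measure the spread between these libraries, which may be technical.

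IFNβ is a type I interferon. It binds the receptor formed by IFNAR1 and IFNAR2 and activates the kinases JAK1 and TYK2, which phosphorylate STAT proteins. With IRF9 these form a complex that binds interferon-stimulated response elements (ISREs) in promoters, whereas IFNγ acts through its own receptor and through STAT pairs that bind gamma-activated sites (GAS). The genes switched on encode viral RNA and DNA sensors, proteins that restrict viruses, and the machinery that displays peptides on MHC class I, and several of them feed back on the pathway.

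The vehicle libraries held 17450954 to 19224703 reads on genes and the IFNβ libraries, which were deeper, 23771255 to 32266795. Libraries of the same group correlated at 0.993 to 0.996 over genes, which are not independent replicates. Levels are given as CPM, the read count of a gene scaled to the TMM-normalised size of its library. Of 18070 genes tested with edgeR's quasi-likelihood test, 3815 (21.1%) had a Benjamini-Hochberg adjusted p-value under 0.05 and were called. Among these, 2140 (11.8%) were higher with IFNβ and 1675 (9.27%) were lower, so 56.1% of the calls were higher. This split depended on the scaling, since with libraries scaled to their total reads and no TMM factors, which moved the median log2 fold change by -0.057, 1648 genes were higher and 2236 lower, and 42.4% of the calls were higher. Most calls were small, with 1602 of the higher and 1498 of the lower genes changed by up to 2-fold.

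The changes over 2-fold leaned one way. There were 538 genes higher over 2-fold (2.98% of those tested) and 177 lower over 2-fold (0.98%). The median log2 fold change of the 538 was 2.69, and 130 of them changed by more than 5 on the log2 scale, whereas the median of the 177 was -1.37. Together the 538 genes summed to between 7544 and 7761 CPM in the vehicle libraries and to between 51070 and 52952 CPM in the IFNβ libraries. The 177 genes summed to between 2543 and 3020 CPM with vehicle and to between 982 and 1740 CPM with IFNβ. Of the 538 genes, 440 were protein-coding, 25 antisense and 20 lincRNA genes, 86 had a mean under 1 CPM in both groups, and 49 had no read in any vehicle library. When tested against a fold change of 2 instead of against no change (edgeR's glmTreat), 344 genes were higher and 8 were lower.

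**Figure D1:**
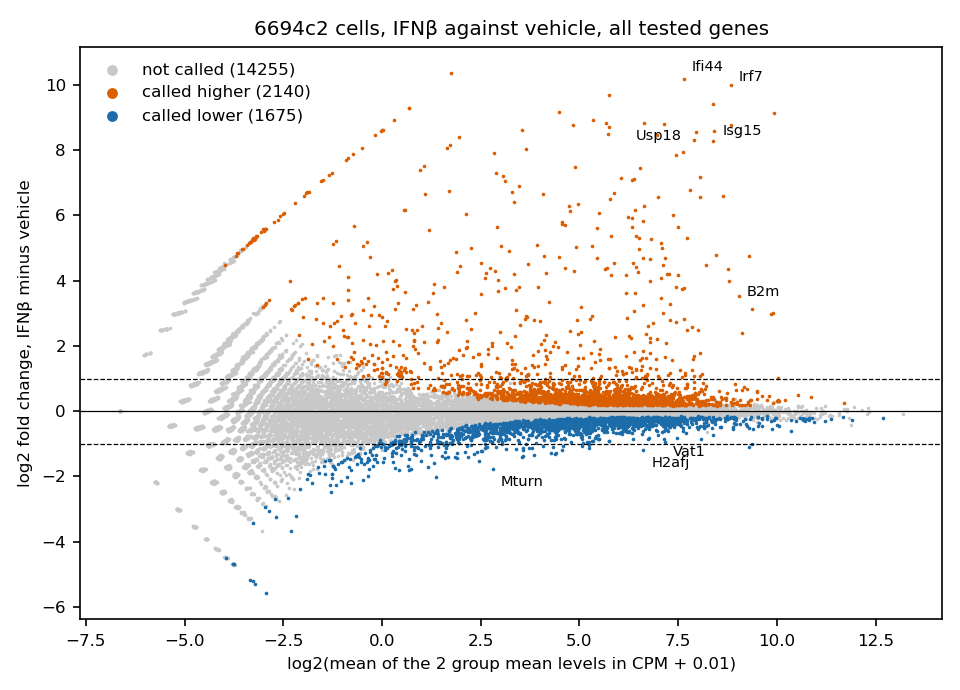
Each point is 1 of the 18070 genes tested in 6694c2 cells, with the mean level of the groups (log2 CPM with 0.01 added) on the x axis and the log2 fold change of IFNβ against vehicle on the y axis. The 2140 genes called higher reach far above the dashed line of 2-fold, to about 10 on the log2 scale for Irf7 and Ifi44, whereas most of the 1675 genes called lower lie between 0 and the lower dashed line.

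The promoters of 6 genes are shown because their letters hold the elements that the pathway is known for. Each is the 150 bases before the RefSeq start (GRCm38.p6), on the strand of the gene and read 5′ to 3′, which need not be the start the deposited counts used. Capitals mark matches to the core of the ISRE, GAAANNGAAA or its complement TTTCNNTTTC, or, in Irf1 where no such core was found, to the GAS pattern TTCNNNGAA. The Oas1a window also holds 1 match to the GAS pattern, which is left in lower case. Overlapping matches were counted separately.
Ifit1 (chr19:34640739-34640888, plus strand): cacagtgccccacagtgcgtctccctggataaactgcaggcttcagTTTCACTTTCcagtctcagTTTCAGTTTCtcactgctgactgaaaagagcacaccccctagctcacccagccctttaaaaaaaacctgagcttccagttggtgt
Isg15 (chr4:156200819-156200968, minus strand): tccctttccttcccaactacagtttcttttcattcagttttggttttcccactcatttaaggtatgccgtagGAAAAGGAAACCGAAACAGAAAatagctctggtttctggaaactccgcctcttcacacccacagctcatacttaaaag
Oas1a (chr5:120907526-120907675, minus strand): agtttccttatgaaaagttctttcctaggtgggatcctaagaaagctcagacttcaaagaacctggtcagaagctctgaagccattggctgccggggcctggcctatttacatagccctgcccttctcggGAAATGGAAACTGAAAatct
B2m (chr2:122147537-122147686, plus strand): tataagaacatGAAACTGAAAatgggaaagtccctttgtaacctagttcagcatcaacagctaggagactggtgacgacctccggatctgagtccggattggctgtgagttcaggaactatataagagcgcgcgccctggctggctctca
Gbp2 (chr3:142620513-142620662, plus strand): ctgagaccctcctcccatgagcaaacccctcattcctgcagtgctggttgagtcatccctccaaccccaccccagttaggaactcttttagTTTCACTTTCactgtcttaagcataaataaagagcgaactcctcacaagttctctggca
Irf1 (chr11:53769864-53770013, plus strand): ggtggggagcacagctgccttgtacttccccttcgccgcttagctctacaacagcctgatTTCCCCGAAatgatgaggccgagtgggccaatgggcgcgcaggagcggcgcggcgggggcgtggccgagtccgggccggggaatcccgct

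In Ifit1 the cores began 104 and 85 bases before the start. In Isg15 there were 3 overlapping cores, the first beginning 78 bases before the start. Over all 32851 promoters in the RefSeq table, each 250 bases before to 50 after a start, 1131 (3.44%) held the ISRE core on either strand and 2726 (8.30%) held the GAS pattern. In the lists a gene was counted if any of its promoters in the table held the core, whereas 3.44% is a share of single promoters. Among genes with a promoter there, the core was found for 5 of 6 IFIT genes and 6 of 8 immunity-related GTPases. It was found for 8 of the 14 genes of the DNA sensing list, 3 of the 7 Schlafen genes and 2 of the 5 IFITM genes. It was found for 5 of the 21 restriction factors and 1 of the 11 interferon regulatory factors. In the receptor and JAK-STAT list it was found for 1 of 6 genes, and in ISG15 conjugation for 1 of 5. It was also found for 1 of the 7 immunoproteasome genes and 1 of the 25 genes of the DNA replication list. None of the 14 genes of the unfolded protein response or the 12 of the cell cycle inhibitors held it. Counted in the same way, the GAS pattern was found for 5 of the 8 immunity-related GTPases and 4 of the 11 interferon regulatory factors. It was found for 6 of the 21 restriction factors and 2 of the 6 receptor and JAK-STAT genes. In the IFIT, IFITM, immunoproteasome and DNA replication lists 1 gene each held it. No gene of the other lists named here held the GAS pattern. Of the protein-coding genes called higher over 2-fold, 343 of 440 (78.0%) had a promoter in the table, which is under 80%, so no share is given for them. A match of letters is a description of the window and does not show that a factor was bound.

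Genes of the receptor and its signalling were changed at the transcription factors more than at the receptor. Of the 7 genes on this list 5 were called higher and none lower, with a median log2 fold change of 0.48, beside 0.00 over all genes tested. Over all genes tested 11.8% were called higher and 9.27% lower, which are the shares to set beside the counts of each list. Stat2 stood at 2.81, 3.19 and 3.68 CPM in the vehicle libraries and at 89.1, 82.9 and 79.0 CPM in the IFNβ libraries. The groups are far apart, with a log2 fold change of 4.70 (SE 0.12, adjusted p = 7.1e-20, edgeR). SE here is the absolute log2 fold change divided by the square root of the F statistic of the test. Irf9 rose from between 4.58 and 4.98 CPM to between 90.8 and 98.5 CPM (log2 fold change 4.34). By contrast, Ifnar1 stood at 34.4 to 37.2 CPM with vehicle and 33.6 to 35.3 CPM with IFNβ and was not called, and neither was Tyk2, while Ifnar2 (log2 fold change 0.48) and Jak1 (0.24) were called with small changes.

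The feedback genes split by the same measure. Usp18, an isopeptidase that removes ISG15 and dampens signalling at IFNAR2, rose from 1.51, 0.927 and 2.09 CPM to 441, 494 and 495 CPM, a 318-fold difference of means from the fit (log2 fold change 8.31, SE 0.14). Socs1, an inhibitor of JAK kinases, rose from between 1.92 and 2.78 CPM to between 10.7 and 16.7 CPM, and Socs3 from between 32.1 and 35.9 CPM to between 50.4 and 58.9 CPM. Of the 8 feedback genes 3 were called higher and 1, the phosphatase gene Ptpn6 (log2 fold change -0.51), lower, with a median log2 fold change of 0.15. Pias1, Ptpn2, Socs2 and Cish were not called.

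Among interferon regulatory factors the change was concentrated in Irf7, the factor that amplifies type I interferon production. Irf7 (ENSMUSG00000025498, chromosome 7 of GRCm38 from 141262706 to 141266481) stood at 1.35, 0.721 and 0.566 CPM with vehicle and at 876, 879 and 973 CPM with IFNβ. Its log2 fold change was 10.00 (SE 0.14, adjusted p = 4.2e-24, edgeR), and per kb of gene length its level moved from rank 12758 to rank 236 among the genes tested. Irf1, with the GAS match printed above, went from 22.2, 20.4 and 18.9 CPM to 94.9, 104 and 99.97 CPM (log2 fold change 2.28). Of the 12 factors and their binding partners 6 were called higher, with Irf7, Irf9, Irf1 and Irf5 over 2-fold, and 1 was lower. Irf3, which is activated without being induced, stood at 19.3 to 20.98 CPM with vehicle and 19.8 to 25.1 CPM with IFNβ and was not called, and Irf4 and Irf8 were not called either. The median log2 fold change of the list was 0.31.

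The IFIT family, whose proteins bind viral RNA and block its translation, was called higher in all 6 members tested, with a median log2 fold change of 8.95. Ifit1, whose ISRE cores are shown above, rose from 2.32, 1.91 and 2.04 CPM to 879, 949 and 902 CPM. This was the smallest p-value of the comparison (log2 fold change 8.77, SE 0.10, adjusted p = 2.8e-25, edgeR). Ifit3 reached 1820, 1965 and 1996 CPM from 3.83, 1.75 and 4.75 CPM, and Ifit3b, a near-identical copy that can share its reads, reached 652 to 694 CPM. Ifit2 rose least, from between 4.02 and 5.15 CPM to between 171 and 182 CPM (log2 fold change 5.29). Ifit1bl2 had no read in the vehicle libraries and 267 reads in the IFNβ libraries, at least 59.0-fold higher against a floor of 3 reads over the vehicle group.

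The OAS enzymes sense double-stranded RNA and make a second messenger of the antiviral response. All 9 tested genes of this list were called higher (median log2 fold change 7.93), and 4 further Oas1 copies had too few reads to be tested. Oas1a stood at 0.756, 0.567 and 0.566 CPM with vehicle and at 262, 288 and 291 CPM with IFNβ (log2 fold change 8.79, SE 0.12, adjusted p = 3.5e-24, edgeR). Oas3 rose from between 0.432 and 0.927 CPM to between 240.4 and 254 CPM, and Oasl1, which started higher at 26.3 to 27.9 CPM, rose to 346 to 365 CPM. Oas1a, Oas1b, Oas1c and Oas1g are close copies, and their counts may share reads.

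Of the 9 RNA sensors and their partners 8 were called higher, with a median log2 fold change of 5.61. Ddx58, which encodes RIG-I, rose from 7.77, 6.34 and 6.96 CPM to 350.2, 362 and 348 CPM (log2 fold change 5.65, SE 0.08). Ifih1, which encodes MDA5, rose from between 1.34 and 2.09 CPM to between 83.8 and 86.3 CPM, and Dhx58, which encodes LGP2, from between 0.412 and 0.810 CPM to between 50.6 and 55.5 CPM. Ddx60, a helicase that acts with these sensors, rose from near 0.2 CPM in each vehicle library to between 87.5 and 109.8 CPM (log2 fold change 8.84). Zbp1, a sensor of Z-form nucleic acid, rose from between 0.509 and 1.62 CPM to between 168 and 202 CPM, and Eif2ak2, which encodes PKR, from between 28.02 and 33.6 CPM to between 232 and 276 CPM. Mavs, the adaptor through which RIG-I and MDA5 signal, stood at 17.8 to 20.5 CPM with vehicle and 20.6 to 22.5 CPM with IFNβ and was not called.

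On the list of DNA sensing and the STING pathway the change lay mainly in genes of the AIM2 family, though not in Aim2 itself. Of 16 tested genes 12 were called higher and none lower, with a median log2 fold change of 5.47. Cgas, the enzyme that makes cGAMP on cytosolic DNA, stood at 6.80, 6.75 and 5.99 CPM with vehicle and at 22.6, 20.6 and 21.5 CPM with IFNβ (log2 fold change 1.73, SE 0.11, adjusted p = 9.4e-12, edgeR). Tmem173, which encodes STING, stood at 1.30, 2.21 and 1.81 CPM with vehicle and at 2.32, 2.92 and 2.51 CPM with IFNβ, a difference that did not pass the test (log2 fold change 0.53, adjusted p of 0.091 by edgeR). Its libraries did not overlap between groups, but its level stayed low in both. Downstream of STING, the kinase gene Tbk1 was called with a log2 fold change of 0.42, and Ikbke and Irf3 were not called. The 10 PYHIN genes of the list other than Aim2 (Ifi203 to Ifi213 and Mndal, nucleic acid binding proteins of the AIM2 family) were all called higher. They are most of the genes tested and so set the median of the list, and as related copies they may share reads. Among them Ifi204 rose from between 8.09 and 11.7 CPM to between 389 and 426 CPM, and Ifi206 from 3 to 1947 reads over its groups, a ratio of 430.5 after scaling for depth with a 95% counting interval from 147 to 2089. Aim2 itself, at 5.61 to 6.48 CPM with vehicle and 5.49 to 7.44 CPM with IFNβ, was not called.

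ISG15 is a ubiquitin-like protein that is joined to other proteins by its own enzymes. All 6 genes of its conjugation cycle were called higher (median log2 fold change 6.08). Isg15 stood at 2.65, 1.24 and 1.36 CPM with vehicle and at 634, 670.3 and 725 CPM with IFNβ, a log2 fold change of 8.595 (SE 0.14, adjusted p = 3.1e-23, edgeR). The activating enzyme gene Uba7 rose from between 0.876 and 1.35 CPM to between 97.2 and 124 CPM, the conjugating enzyme gene Ube2l6 from between 2.58 and 3.67 CPM to between 138 and 181 CPM, and the ligase gene Herc6 from between 1.597 and 1.89 CPM to between 53.3 and 64.1 CPM.

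**Figure D2:**
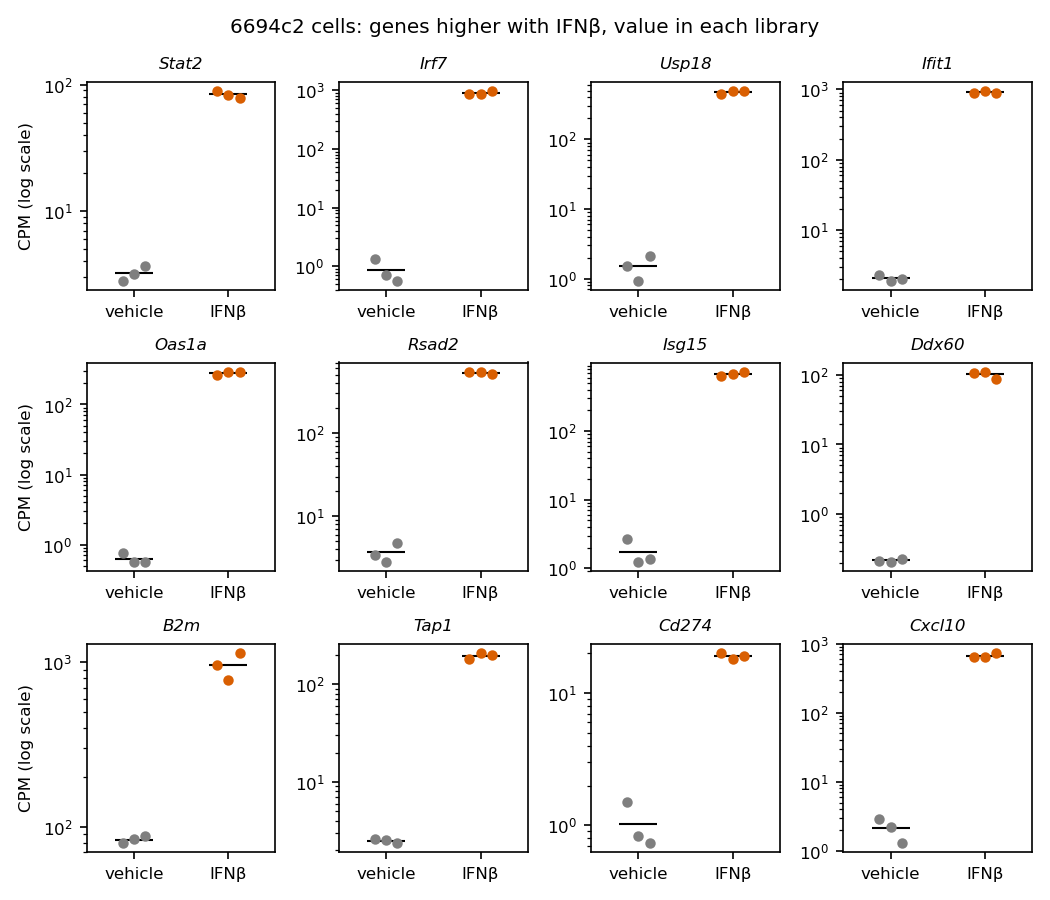
CPM (log scale) in each of the 3 vehicle and 3 IFNβ libraries of 6694c2 cells for 12 genes, with a bar at the mean of each group. In every panel the IFNβ libraries lie above all vehicle libraries, with mean folds from 11.5 for B2m to 1027 for Irf7.

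The GTPases that attack viruses and vacuoles were divided. Of 13 Mx and GBP genes 9 were called higher and none lower (median log2 fold change 3.37). Mx1 rose from 0.162, 0.155 and 0.679 CPM to 63.5, 60.6 and 51.1 CPM, and Mx2 from at most 0.170 CPM to between 41.3 and 49.6 CPM. Gbp2, whose ISRE core is shown above, rose from 33.5, 31.5 and 22.1 CPM to 276, 291 and 287 CPM (log2 fold change 3.29), while Gbp2b, Gbp8, Gbp10 and Gbp11 reached at most 1.01 CPM in any library (Gbp10) and were not called. Of 10 immunity-related GTPases 9 were called higher (median log2 fold change 4.77), among them Irgm1 (from between 22.2 and 27.1 CPM to between 547 and 585 CPM) and Igtp (from between 5.03 and 9.39 CPM to between 249.4 and 278 CPM). Irgq was called lower (log2 fold change -0.37), a call that ended without IFNβ replicate 3 (-0.31) or without vehicle replicate 1 (-0.30) or 2 (-0.37). Gbp genes, and Tgtp1 with Tgtp2, are near-identical copies whose counts are uncertain.

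Of 24 restriction factors and related antiviral genes 23 were called higher, all over 2-fold, with a median log2 fold change of 4.09. Rsad2, which encodes viperin, rose from 3.45, 2.83 and 4.75 CPM to 541, 539 and 513 CPM (log2 fold change 7.18, SE 0.18). Ifi44 rose from 0.594, 0.103 and 0.339 CPM to 383, 394 and 417 CPM, a log2 fold change of 10.16 that was the largest among genes with more than 3 vehicle reads that the naming rule covers. Bst2, the gene of the virion tether tetherin, rose from between 7.07 and 9.12 CPM to between 741 and 879 CPM, and Samhd1, which lowers nucleotide pools, from between 44.6 and 46.6 CPM to between 293 and 318 CPM. Adar, which edits double-stranded RNA, rose from between 39.6 and 49.7 CPM to between 195 and 209.6 CPM. Plscr1 stood at 236 to 263 CPM with vehicle and 241 to 262 CPM with IFNβ and was not called. Of 5 IFITM genes tested only Ifitm3 was called, from 4.48, 3.50 and 4.07 CPM to 436, 381 and 512 CPM. Ifitm2 was already at 103 to 124 CPM with vehicle and spread from 72.3 to 142 CPM with IFNβ.

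All 8 tested Schlafen genes, a family linked to translation control and T cell quiescence, were called higher (median log2 fold change 5.15). Slfn8 rose from between 0.103 and 0.216 CPM to between 77.7 and 83.7 CPM, and Slfn9 from between 10.01 and 12.96 CPM to between 234 and 297 CPM. Slfn4 had no read with vehicle and 166 with IFNβ, at least 36.7-fold higher by the same floor. Of 8 tested genes of PARPs and their partner DTX3L 6 were called higher, such as Parp12 (from between 5.25 and 5.83 CPM to between 510.2 and 539 CPM) and Parp14 (from between 1.75 and 3.62 CPM to between 218 and 271 CPM). Parp1, the DNA damage enzyme, was lower by a log2 fold change of -0.28, and Parp2 was not called.

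Genes of antigen display by MHC class I were higher, from peptide cutting to the heavy chain. Of 16 genes of MHC class I, its light chain and its transactivator 11 were called higher and none lower (median log2 fold change 3.07). B2m, the light chain gene whose ISRE core is shown above, rose from 79.7, 83.8 and 87.3 CPM to 963, 783 and 1138 CPM (log2 fold change 3.52, SE 0.11, adjusted p = 4.5e-18, edgeR). Per kb of gene length B2m was the highest of the 538 genes in the IFNβ libraries, at rank 40 among the genes tested. H2-K1 went from 126, 139 and 137 CPM to 1131, 1067 and 1338 CPM, and H2-D1 from 201, 218 and 216 CPM to 1627, 1590 and 1864 CPM. Nlrc5, the transactivator of these genes, rose from 0.108, 0.155 and 0.0566 CPM to 18.8, 16.1 and 14.7 CPM (log2 fold change 7.199). The class I genes are similar in sequence, so reads may be shared among them.

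For peptide transport and loading, 6 of 8 genes were called higher and none lower (median log2 fold change 2.75). Tap1 rose from 2.59, 2.52 and 2.38 CPM to 183, 209 and 199 CPM (log2 fold change 6.30, SE 0.10), and Tapbp, the gene of tapasin, from between 23.6 and 25.9 CPM to between 639.8 and 721 CPM. Of the 7 genes of the immunoproteasome and its activators 6 were called higher (median log2 fold change 2.83), although the call of Psme3 (log2 fold change 0.17) ended without IFNβ replicate 1 (0.19), 2 (0.14) or 3 (0.19), or without vehicle replicate 2 (0.17) or 3 (0.12). Psmb8, Psmb9 and Psmb10, the inducible catalytic subunits, had log2 fold changes of 3.72, 5.11 and 4.17. Of the 14 constitutive subunits, counted beside them, 7 were called higher (median log2 fold change 0.16), and 3 without IFNβ replicate 3 or without vehicle replicate 1.

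MHC class II genes did not follow. None of 11 tested genes was called in either direction by edgeR or by DESeq2, none had an unadjusted p under 0.05 (the smallest, by edgeR, was that of H2-Ab1 at 0.249), and the median log2 fold change was -0.02. Ciita, their transactivator, stood at 0.864, 0.515 and 1.19 CPM with vehicle and at 0.816, 0.987 and 0.941 CPM with IFNβ, and the groups overlap. Cd74, the invariant chain, was between 17.98 and 24.3 CPM with vehicle and between 18.6 and 24.8 CPM with IFNβ.

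**Figure D3:**
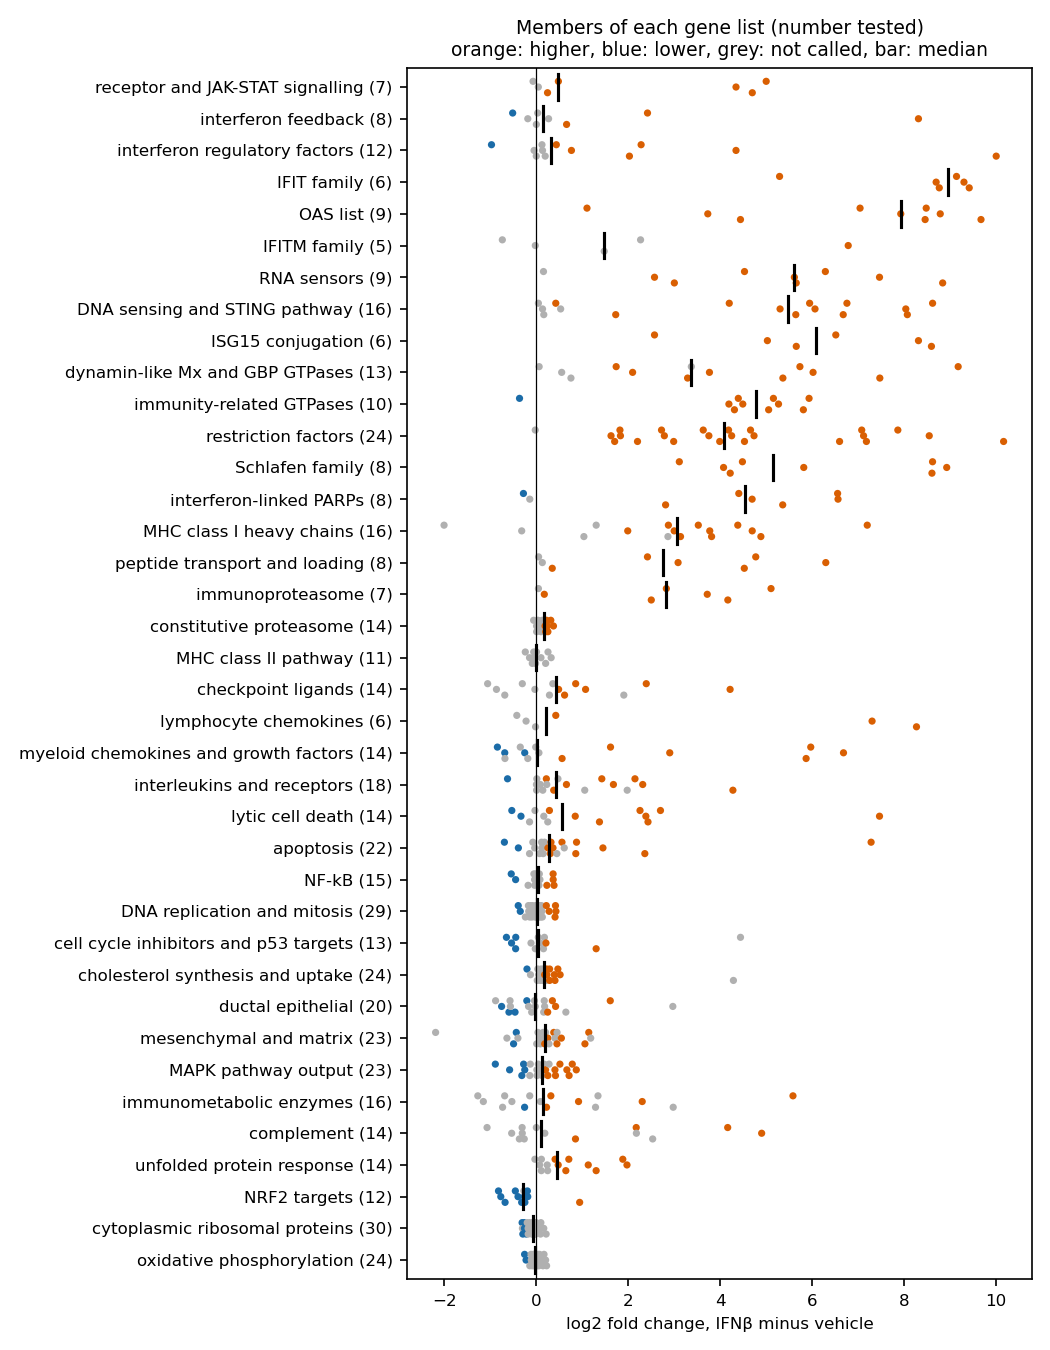
Log2 fold change of IFNβ against vehicle (x axis) for each tested member of 38 gene lists (rows, number of tested members in brackets), with orange points called higher, blue called lower, grey not called and a bar at the median. The IFIT, OAS and ISG15 rows lie far to the right, with medians of 8.95, 7.93 and 6.08, the MHC class II row sits around 0, and the NRF2 row lies left of 0 except for Hmox1.

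Ligands seen by lymphocytes changed in part. Cd274, which encodes the checkpoint ligand PD-L1, stood at 1.51, 0.824 and 0.735 CPM with vehicle and at 20.2, 18.1 and 19.0 CPM with IFNβ (log2 fold change 4.22, SE 0.16, adjusted p = 1.7e-16, edgeR). Lgals9, which encodes galectin-9, rose from between 172 and 183 CPM to between 856 and 1017 CPM, and Cd47, the signal against phagocytosis, from between 161 and 179.9 CPM to between 340.2 and 380.1 CPM. Of 14 tested genes of this list 6 were called higher and none lower (median log2 fold change 0.42). Cd86, Vtcn1, Vsir, Cd40 and Icosl were under 1 CPM in every library of the groups and were not called, so these counts are too few to show a modest difference.

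Among lymphocyte chemokines the change was that of Cxcl10. It rose from 2.92, 2.21 and 1.30 CPM to 641, 629 and 731 CPM (log2 fold change 8.27, SE 0.14, adjusted p = 6.9e-23, edgeR). Cxcl11 went from no read to 66 reads, at least 14.6-fold higher against the floor, and Cxcl16 had a log2 fold change of 0.42. Cxcl9, the other ligand of the receptor CXCR3, stood at 0.270, 0.103 and 0.113 CPM with vehicle and at 0.126, 0.129 and 0.105 CPM with IFNβ and was not called, and Ccl5 and Cx3cl1 were not called either. Of 14 myeloid chemokines and growth factors 6 were called higher and 3 lower (median log2 fold change 0.02). Csf1, the macrophage growth factor, rose from between 2.66 and 3.40 CPM to between 20.1 and 23.2 CPM, and Ccl2 from between 1.39 and 2.00 CPM to between 4.55 and 5.79 CPM. The neutrophil attractant Cxcl1 fell from between 8.81 and 9.78 CPM to between 4.46 and 5.75 CPM (log2 fold change -0.85), and Csf2 from between 5.78 and 9.16 CPM to between 4.64 and 5.23 CPM. Of 18 interleukin and receptor genes 8 were called higher and 1 lower, the alarmin Il33 (from between 76.3 and 84.9 CPM to between 49.4 and 55.2 CPM), and the count of 8 was 5 without vehicle replicate 2 or without vehicle replicate 3. Il18bp, the soluble inhibitor of IL-18, rose from between 0.270 and 0.452 CPM to between 6.72 and 7.55 CPM.

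Genes of lytic cell death were called higher in 8 of 14 and lower in 2 (median log2 fold change 0.57), and lower in 1 without IFNβ replicate 1 or 2 or vehicle replicate 1 or 3, where the call of Nlrc4 ended. Mlkl, the pore former of necroptosis, rose from 37.4, 37.5 and 38.9 CPM to 182, 175 and 186 CPM (log2 fold change 2.26), and Gsdmd, the pore former of pyroptosis, from between 51.0 and 56.3 CPM to between 137 and 143 CPM. The caspase genes Casp1, Casp4 and Casp12 were at or below 1.24 CPM in every vehicle library (Casp12) and between 2.23 (Casp1) and 5.75 CPM (Casp12) with IFNβ. Ripk3, the kinase upstream of MLKL, was at 9.79 to 11.1 CPM with vehicle and 11.1 to 13.7 CPM with IFNβ and was not called. Among 22 apoptosis genes 10 were called higher and 2 lower (median log2 fold change 0.28). Tnfsf10, which encodes TRAIL, rose from 0.108, 0.155 and 0 CPM to 14.6, 15.4 and 14.4 CPM, and Daxx from between 31.1 and 36.7 CPM to between 170.3 and 175 CPM. Among the lower genes, the survival gene Bcl2 fell from between 20.1 and 23.6 CPM to between 12.5 and 15.4 CPM.

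The genes named by size of change outside all lists were led by the Phf11 cluster. Phf11a had no read with vehicle and 560 with IFNβ, at least 124-fold higher, Phf11b rose from between 0.0540 and 0.170 CPM to between 51.6 and 61.3 CPM, and Phf11d from between 0.226 and 0.702 CPM to between 178 and 222 CPM. Trim30a, a member of the tripartite motif family, stood at 0.702, 1.13 and 0.905 CPM with vehicle and at 137, 131 and 128 CPM with IFNβ (log2 fold change 7.16), and its close copy Trim30d reached 18.9 to 20.4 CPM. Gvin1 and its copy Gm4070, genes of very large interferon-inducible GTPases, had log2 fold changes of 6.90 and 6.67. The pseudogenes Gm2619 and Gm7609 rose from 1 read each to 656 and 558 reads.

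Many of the 538 genes are neighbours. Ordered by position among the tested genes, 93 of them lie in 17 runs of at least 4 adjacent genes that were all called higher over 2-fold. The 177 lower genes form no such run, but they are fewer (0.98% against 2.98% of genes tested). How many runs would arise without regard to position was not computed. Genes with too few reads to be tested are skipped in this order and cannot break a run. Some members, such as Slfn4, had no read with vehicle and could be tested because of reads in treated libraries. The longest run holds 11 genes, 8 of them Schlafen genes, on chromosome 11 (82951349 to 83215154), with log2 fold changes from 3.11 to 8.93. A run of 10 on the same chromosome (48861968 to 49135387) holds Irgm1, Tgtp1, Tgtp2 and Ifi47, and 8 PYHIN genes are adjacent on chromosome 1 (173468485 to 173802720). All 6 IFIT genes form a run on chromosome 19 (34550694 to 34650009), and Psmb9, Tap1, Psmb8 and Tap2 form a run on chromosome 17 (34181988 to 34216321). Neighbours of this kind are often copies of each other and can share reads.

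Genes lower with IFNβ changed less. Mturn, a regulator of differentiation, had the largest fall by the naming rule, from 11.7, 9.63 and 10.9 CPM to 3.05, 3.65 and 2.72 CPM (log2 fold change -1.79, SE 0.13, adjusted p = 2.4e-10, edgeR). The histone variant gene H2afj fell from 120.1, 150.4 and 138 CPM to 55.5, 57.6 and 65.3 CPM (log2 fold change -1.19). Cbr3, a carbonyl reductase, fell from between 15.8 and 18.1 CPM to between 5.93 and 6.69 CPM, and the imprinted gene Mest from between 18.5 and 23.2 CPM to between 7.60 and 8.32 CPM. Aldh1a3, which makes retinoic acid, had the smallest p in this direction and fell from 43.7, 45.1 and 45.9 CPM to 22.1, 21.96 and 23.8 CPM (log2 fold change -0.99, SE 0.07, adjusted p = 3.4e-11, edgeR). Vat1, at 185, 180 and 184 CPM with vehicle, stood at 99.0, 101 and 102 CPM with IFNβ. Other genes named here were Polr3g, a subunit of RNA polymerase III (log2 fold change -1.05), Aktip (-1.06), Megf6 (-1.27), Megf9 (-1.37), Calr3 (-1.52), Sema6d (-1.42), Trib2 (-1.30) and the palmitoyltransferase gene Zdhhc2 (-0.86). In each of the genes of this paragraph the IFNβ libraries lie below all vehicle libraries.

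**Figure D4:**
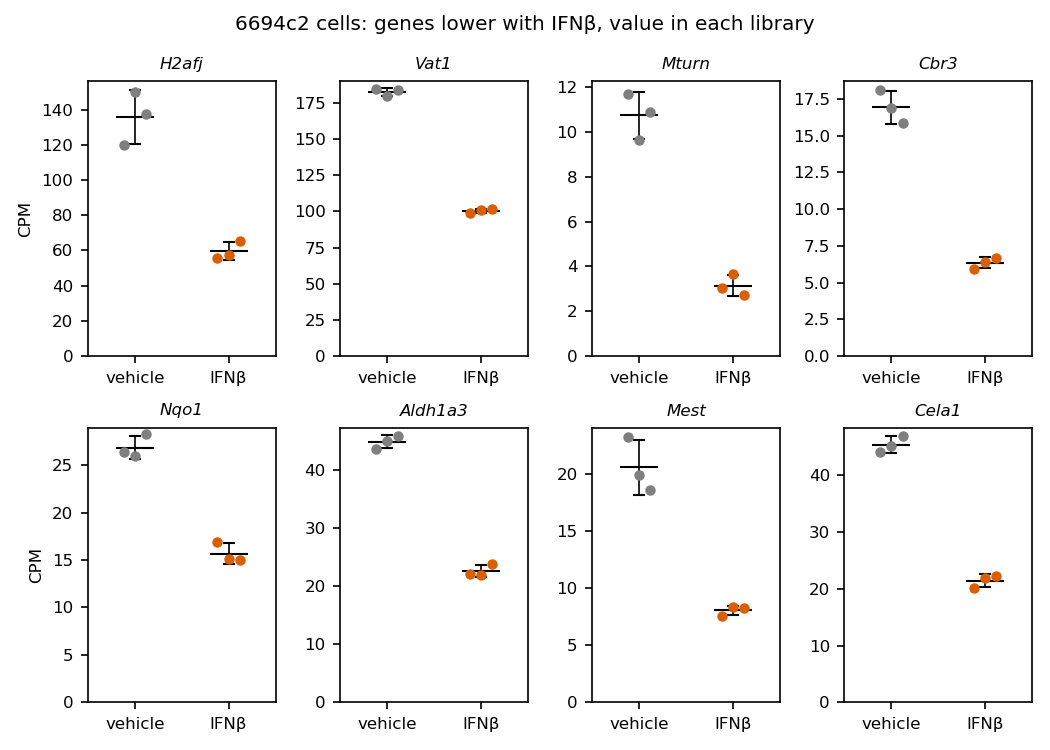
CPM (linear scale from 0) in each of the 3 vehicle and 3 IFNβ libraries of 6694c2 cells for 8 genes called lower, with the mean and SD of each group. All IFNβ libraries lie below all vehicle libraries, with levels from 0.29-fold (Mturn) to 0.59-fold (Nqo1) of those with vehicle.

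Targets of NRF2, the factor of the antioxidant response, mostly moved down by small amounts. Of 12 genes 10 were called lower and 1 higher, none over 2-fold, with a median log2 fold change of -0.29. The calls of Gclm and Gsta4 ended without IFNβ replicate 1 and in the fit of only the 6 libraries compared. That of Gclm also ended without vehicle replicate 1, and that of Gsta4 without IFNβ replicate 3 or vehicle replicate 3 and with the replicate block. Nqo1, a quinone reductase, fell from 26.4, 25.9 and 28.2 CPM to 16.9, 15.1 and 14.95 CPM (log2 fold change -0.77, SE 0.08). Aldh3a1 fell from between 49.1 and 60.2 CPM to between 27.9 and 31.6 CPM, Gstm1 from between 72.6 and 89.5 CPM to between 46.9 and 55.4 CPM, and Gclc, the catalytic subunit of glutathione synthesis, from between 190.1 and 202 CPM to between 135 and 149.8 CPM. Hmox1, the heme oxygenase gene, went the other way, from 8.04, 8.09 and 10.3 CPM to 16.9, 17.2 and 16.7 CPM (log2 fold change 0.94), and Slc7a11 was not called.

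Genes of the unfolded protein and integrated stress responses were called higher in 8 of 14 and lower in none (median log2 fold change 0.44). The members that changed most are known targets of ATF4. Trib3 rose from 8.42, 6.95 and 6.90 CPM to 24.6, 31.6 and 26.1 CPM (log2 fold change 1.88, SE 0.11), Chac1 from between 2.81 and 4.89 CPM to between 13.5 and 16.5 CPM, and Sesn2 from between 5.32 and 6.37 CPM to between 12.3 and 15.2 CPM. The chaperone gene Hspa5 rose from between 705 and 761 CPM to between 949 and 1126 CPM. Atf4 transcript itself and Xbp1 were not called. Of 24 genes of cholesterol synthesis and uptake 9 were called higher and 1 lower, none over 2-fold, with Cyp51 (log2 fold change 0.52) and Pmvk (0.47) the furthest of those called. The lower gene, Idi1, lost its call without IFNβ replicate 1 or 3 or vehicle replicate 2 or 3, and without vehicle replicate 2 the list held 6 higher genes.

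Proliferation genes were mostly level. Of 29 genes of DNA replication and mitosis 5 were called higher, 2 lower and 22 not at all, with a median log2 fold change of 0.01. The lower genes were Mki67 (from between 270.2 and 293 CPM to between 199 and 245 CPM) and Ccne2, and the higher ones included the helicase subunit Mcm6 (log2 fold change 0.42) and the mitotic kinase Plk1 (0.41). Scaled to total reads, 5 genes of this list were lower. Of 13 cell cycle inhibitors and p53 targets 2 were called higher, one of them Sesn2, and 4 lower, among them Cdkn1a, which encodes p21 (from between 19.5 and 21.2 CPM to between 14.3 and 15.2 CPM). The call of the other higher gene (log2 fold change 0.21) ended without IFNβ replicate 2 or 3 or vehicle replicate 2 or 3 and in the fit of only the 6 libraries compared.

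Among 23 genes of MAPK pathway output 9 were called higher and 5 lower, none over 2-fold (median log2 fold change 0.12). Myc stood at 111, 112 and 112 CPM with vehicle and at 192, 207 and 212 CPM with IFNβ (log2 fold change 0.87, SE 0.06). The EGFR ligand genes Ereg (from between 28.7 and 32.5 CPM to between 51.2 and 56.7 CPM) and Areg (log2 fold change 0.42), Junb (0.71) and the phosphatase gene Dusp5 (0.66) also rose, while the ETS factor genes Etv1 (-0.89) and Etv4 (-0.25) fell. Without vehicle replicate 1 the count of lower genes on this list was 3. Of 15 NF-κB genes 4 were called higher (2 without IFNβ replicate 2) and 2, Vcam1 and Traf1, lower. The shares over all genes tested were 11.8% higher and 9.27% lower.

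The ductal keratin genes Krt8 and Krt18 were abundant in both groups, while 5 of 20 ductal markers, the claudin genes Cldn3, Cldn4 and Cldn7 and the transcription factor genes Grhl2 and Ovol1, averaged under 1 CPM with IFNβ. Krt8 was between 6816 and 7278 CPM with vehicle and between 5865 and 6387 CPM with IFNβ, and Krt18 was between 2806 and 3341 CPM with vehicle and between 3367 and 3749 CPM with IFNβ. Of the 20 markers 4 were called higher and 4 lower (2 lower without vehicle replicate 3, where the call of Krt8 ended at a log2 fold change of -0.18), with a median log2 fold change of -0.03. Muc1, the membrane mucin gene, changed most among them, from 9.02, 8.71 and 9.05 CPM to 22.5, 28.2 and 31.1 CPM (log2 fold change 1.61, SE 0.12), while Krt7 fell from between 164 and 193 CPM to between 113 and 126 CPM. Of 23 mesenchymal and matrix genes 7 were called higher and 2 lower (median log2 fold change 0.18), beside 11.8% and 9.27% of all genes tested. Thbs1 had a log2 fold change of 1.06, and Fn1 (-0.50) and Col6a1 (-0.44) fell.

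Enzymes and secreted proteins of inflammation gave further single changes. Of 16 immunometabolic genes 5 were called higher and 1, Odc1, lower (median log2 fold change 0.16), and the call of Odc1 ended without IFNβ replicate 1 or vehicle replicate 3. Gch1, the first enzyme of tetrahydrobiopterin synthesis, rose from 25.2, 26.1 and 26.6 CPM to 123, 119.97 and 141 CPM (log2 fold change 2.30, SE 0.09). Ido1, which degrades tryptophan, had no read with vehicle and 20 with IFNβ, at least 4.42-fold higher against the floor. Of 14 complement genes 4 were called higher, among them C4b (from between 0.452 and 0.756 CPM to between 16.9 and 19.0 CPM) and Cfb (from between 5.18 and 6.34 CPM to between 86.3 and 117 CPM). Of 30 ribosomal protein genes 5 were called lower, none over 2-fold, beside 9.27% of all genes tested. The count of 5 ran from 2 without vehicle replicate 3 to 9 without IFNβ replicate 3 or vehicle replicate 1. It was 3 without IFNβ replicate 1 or vehicle replicate 2. Of 24 oxidative phosphorylation genes 2 were called lower, none over 2-fold, and 1 without IFNβ replicate 1 or 2 or vehicle replicate 2 or 3, where the call of Atp5c1 ended.

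Markers of other cells were at low levels, with exceptions that bear on some genes above. The 12 melanocyte markers, all over 10 times higher in B16F10 libraries, summed to between 85.6 and 88.2 CPM in the vehicle libraries and to between 27.1 and 41.0 CPM in the IFNβ libraries, and 9 of them were called lower and none higher. Tyrp1, for example, was at 27.4, 27.4 and 28.3 CPM with vehicle, at 12.97, 12.7 and 8.44 CPM with IFNβ and at 6375 CPM in B16F10 vehicle cells. The calls of Tyrp1, Pmel and Mlana ended under the robust fit. Those of Mitf and Trpm1 ended without IFNβ replicate 3, and that of Mitf also without IFNβ replicate 2. Of the 889 tested genes that were over 10 times higher in B16F10 libraries, 60 were among those called lower and 18 among those called higher. They make up 39 of the 177 genes lower over 2-fold and 9 of the 538 higher, and Thbs1 and Cdkn1a, named above as called, are among the 889. Without these genes 517 genes were higher and 148 lower over 2-fold. What part RNA of the other line has in the calls of these genes was not tested.

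Of 10 B-cell markers 9 were not called, and without Pax5 they summed to between 25.96 and 32.98 CPM with vehicle and to between 21.3 and 37.7 CPM with IFNβ. Pax5, the B-lineage transcription factor gene, stood at 1.08, 0.979 and 1.64 CPM with vehicle and at 36.4, 28.9 and 34.8 CPM with IFNβ (log2 fold change 4.77, SE 0.18, adjusted p = 3.3e-16, edgeR). It was the only marker of this list to change. Of the 10 T-cell markers 4 were tested and Lck, at 1.01 CPM or less in every library of the groups, was called higher (log2 fold change 1.09), a call that ended without any 1 of the 6 libraries, with log2 fold changes there from 0.94 to 1.24. Macrophage markers other than Cd14 were below 2 CPM, with Itgam and Aif1 too low to test. Cd14 was at 34.2 to 37.7 CPM with vehicle and 44.4 to 49.0 CPM with IFNβ (log2 fold change 0.37). Fibroblast and endothelial markers were at most 0.69 CPM in any library (Col1a1) or untested, and the acinar markers were untested, apart from the elastase gene Cela1, which fell from 44.1, 45.0 and 46.9 CPM to 20.2, 21.8 and 22.2 CPM. Cela1 was also present in B16F10 cells, a melanoma line, at means of 24.96 CPM with vehicle and 20.13 CPM with IFNβ. Its level here is therefore not particular to acinar cells. Fewer cells of a type and less RNA per cell cannot be told apart in bulk libraries.

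IFNβ was also tested directly against IFNγ, the type II interferon. Doses were in different units (1000 U/mL and 100 ng/mL), so the difference is between these treatments as given. Over all genes 1511 (8.36%) were higher and 1382 (7.65%) lower with IFNβ than with IFNγ. Of the 538 genes, which were chosen with the same IFNβ libraries, 312 were higher with IFNβ, 93 lower and 133 not called. All tested genes of the IFIT (6), OAS (9), ISG15 (6) and Schlafen (8) lists were higher with IFNβ, as were 8 of the 9 RNA sensor genes. In contrast, all 10 immunity-related GTPases, 10 of the 13 Mx and GBP genes and 6 of the 7 immunoproteasome genes were lower with IFNβ than with IFNγ.

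Rsad2 had the largest difference toward IFNβ by the naming rule, at 513 to 541 CPM with IFNβ and a mean of 5.46 CPM with IFNγ (log2 difference 6.68, adjusted p = 3e-19, edgeR). Trim30a (log2 difference 6.18), Trim30d (5.89), Ifi213 (5.70) and Mx2 (5.68) followed. Pax5 and Gch1, with mean levels of 1.47 and 28.9 CPM with IFNγ, were close to their vehicle levels there. Toward IFNγ the largest differences were those of Serpina3f (-9.38), Cxcl9 (-7.99), C1s1 (-7.50), Ubd (-7.36) and Serpina3g (-6.84), none of which was called against vehicle with IFNβ. Gbp2 averaged 5785 CPM with IFNγ and 285 CPM with IFNβ, and Irf1 averaged 535 and 99.8 CPM. For MHC class II genes 7 of 11 were lower with IFNβ, with Ciita at a mean of 21.7 CPM with IFNγ. Aldh1a3, lowered by IFNβ, averaged 188 CPM with IFNγ against 44.9 CPM with vehicle. B2m (log2 difference -0.17) and Tapbp (0.00) were not called between the agents.

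**Figure D5:**
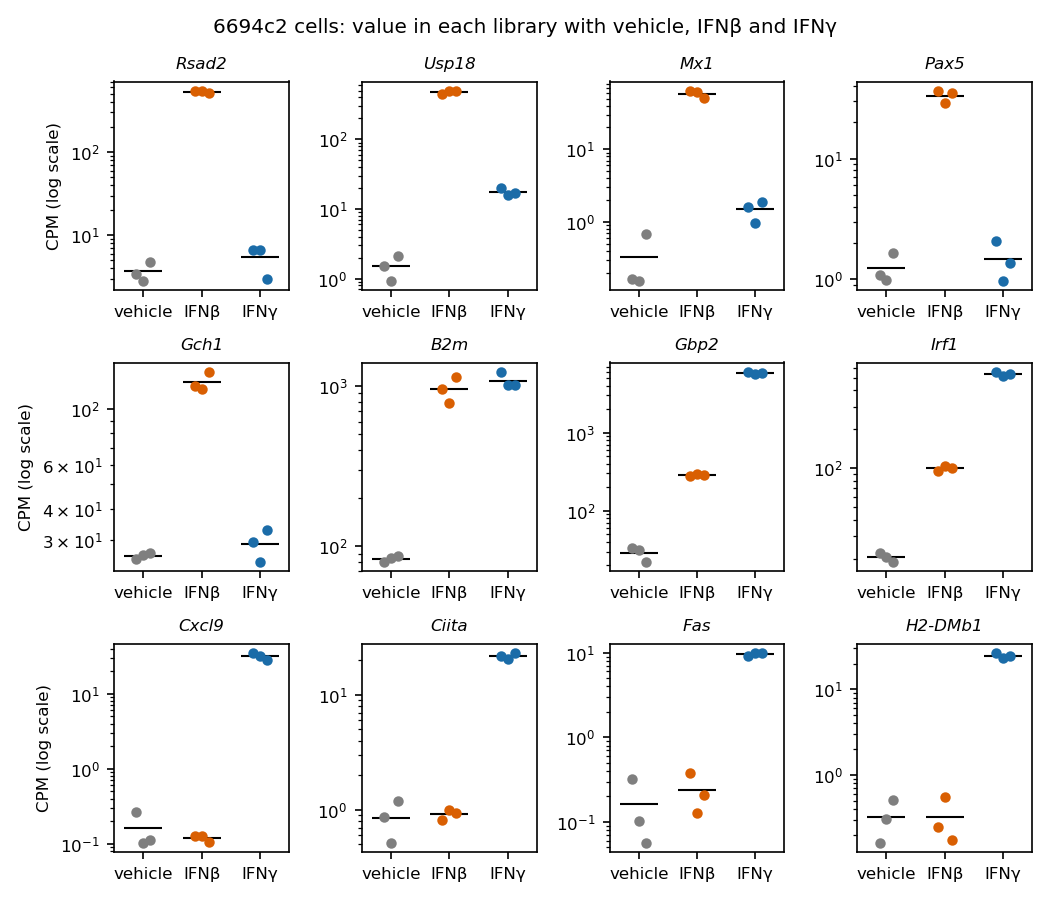
CPM (log scale) in each of the 3 libraries with vehicle, IFNβ and IFNγ in 6694c2 cells for 12 genes, with a bar at the mean of each group. Rsad2, Usp18, Mx1, Pax5 and Gch1 are highest with IFNβ, B2m overlaps between the agents, and Gbp2, Irf1, Cxcl9, Ciita, Fas and H2-DMb1 are highest with IFNγ.

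Whether the effect of IFNβ differed from that in B16F10 cells was tested as an interaction over the 24 libraries. Of 21138 genes the effect was more positive in 6694c2 cells for 1303 (6.16%) and less positive for 1248 (5.90%), a split of 51.1% more positive that moved to 35.2% when scaled to total reads and to between 60.7 and 65.3% when any 1 of the 6 B16F10 libraries of the contrast was left out. Of the 538 genes higher over 2-fold in 6694c2 cells, 240 were more positive and 12 less, and they were chosen with the 6694c2 libraries. Ifit1 averaged 2.09 CPM with vehicle and 910.1 CPM with IFNβ in 6694c2 cells, and 53 and 925 CPM in B16F10 cells, and Isg15 averaged 1.75 and 677 CPM against 48.9 and 717 CPM. For both genes the level with IFNβ was close between the lines, that with vehicle was lower in 6694c2 cells, and the log2 effects differed by 4.61 and 4.69. Irf7 stayed low in B16F10 cells, at 0.916 CPM with vehicle and 2.61 CPM with IFNβ. Pax5, at 1.10 and 1.75 CPM in B16F10 cells, differed by 4.11 (adjusted p = 1.1e-10, edgeR).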

How the data were processed

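Bulk RNA was sequenced from 24 libraries, 3 in each of 8 groups, and 6 single-cell samples of the series were not analysed here. The authors trimmed reads with cutadapt, aligned them with STAR and counted them per gene with Rsubread, and they deposited raw counts for 49315 genes. The processing notes of all samples list mm10, with no step named. The gene annotation, strand setting and treatment of multiply mapped reads are not given in the sources used here, so counts of near-identical copies, overlapping genes and antisense genes are uncertain. Symbols were matched for 48970 gene identifiers. Of the 49315 identifiers, 49056 are in GENCODE M21, and 91.4% had the same start, end and strand there.

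Counts were analysed with edgeR 4.0.16 (R 4.3.3, limma 3.58.1) using TMM scaling, genes with at least 10 reads over the 12 libraries of 6694c2 cells, 1 mean per group and the quasi-likelihood test. A gene was called at a Benjamini-Hochberg adjusted p under 0.05 over all genes tested. The fit pools the spread over all groups, since an exact permutation test of 3 against 3 libraries cannot go below p = 0.1. The interaction with line was fitted over all 24 libraries. Counting intervals and floors cover counting error only. Each SE given with a log2 fold change was derived from the F statistic of the test. It is not an interval for the fold and can be smaller than counting error where a group holds few reads.

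Besides members of the gene lists, genes named are the 15 with the largest fold change, the 10 with the smallest p and the 10 with the largest fold change outside the lists, in each direction, among called genes without overlap between groups, with a mean of at least 5 CPM in the higher group and not over 10 times higher in a B16F10 group. For the contrast with IFNγ and the interaction, the 5 with the largest difference in each direction were named. Genes outside this rule that are named as pseudogenes, neighbours or copies were chosen after their values were seen. The members and lists were chosen with earlier results of these data known. Alternatives were DESeq2 1.42.0, RLE factors, other filters on low counts, a replicate block, leaving out each library, fewer libraries, a robust fit, leaving out genes of the other line, a test against 2-fold and, chosen after seeing the data, scaling to total reads. Some genes are not reported here.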

Additional observations from a re-analysis of the deposited data

Results flagged for a closer look

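For 10 genes, named as the 5 with the largest difference in each direction, the effect of IFNβ differed between 6694c2 and B16F10 cells by the interaction test of edgeR. The log2 effect in 6694c2 cells was larger by 8.50 for Irf7 (adjusted p = 4.3e-16), by 6.85 for Ifit1bl1 (9e-11), by 6.54 for Phf11a (0.012), by 5.76 for Oas1g (1.6e-17) and by 5.29 for Xaf1 (9.7e-27). In B16F10 cells Irf7 averaged 0.916 CPM with vehicle and 2.61 CPM with IFNβ, Ifit1bl1 0.288 and 1.05 CPM, and Phf11a 0.0789 and 1.24 CPM. Oas1g (8.85 and 129.9 CPM) and Xaf1 (27.4 and 159 CPM) were induced in B16F10 cells too. Phf11a had no read in the vehicle libraries of 6694c2 cells, so its fitted difference depends on the prior count and is no bound. Its call ended without B16F10 vehicle replicate 3 (5.68).

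In the other direction the difference was -4.92 for Adgrl3 (adjusted p = 0.02), -4.65 for Krt13 (0.037), -4.31 for Pir (0.038), -4.13 for Myo7b (4.1e-05) and -3.35 for Sh2d4a (0.0012). All 5 were at most 0.360 CPM in the mean of either B16F10 group, and Adgrl3, Krt13 and Pir were at 0 with vehicle there, so their fitted differences depend on the prior count too. The call of Adgrl3 ended without B16F10 IFNβ replicate 3 (-3.40) or any B16F10 vehicle library, that of Krt13 without B16F10 IFNβ replicate 1 (-3.10), without any B16F10 vehicle library or with only 12 libraries in the fit, and that of Pir without B16F10 IFNβ replicate 2 (-3.90) or 3 (-4.26) or any B16F10 vehicle library.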

How the results depend on the processing

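Of the counts that answer a comparison, 130 values under alternatives kept to within 1.5 times the reported value and 4 did not. A test against 2-fold gave 344 genes higher and 8 lower, in place of 538 and 177, by its own stricter threshold. The number of genes less positive in 6694c2 than in B16F10 cells was 1248 and ranged from 781 (without B16F10 vehicle replicate 1) to 1209 with 1 library left out, and was 818 without B16F10 IFNβ replicate 1; the cause was not tested. With 1 library left out, 1775 to 2121 genes were higher and 1313 to 1564 lower than with vehicle, and 491 to 522 and 154 to 191 over 2-fold. DESeq2 called 2106 genes higher and 1834 lower. With the replicate number as a block 2089 genes were higher and 1625 lower, 518 and 163 over 2-fold, with 1420 and 1332 for the contrast with IFNγ and 1336 and 1281 for the interaction. Libraries of vehicle and IFNβ with the same number had correlations of deviations of 0.34, -0.24 and 0.33, so the numbers were not taken as pairing the samples. Of 328 listed or named genes called against vehicle, 278 kept their call under every alternative that tested them, 50 lost it in at least 1, and none changed direction. Some of these genes were not tested in every alternative, such as Thbs1 and Cdkn1a where genes of the other line were left out. Depth limits genes under 1 CPM, where a library holds few reads per gene.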
